A study of Mus musculus with 3 samples.

Results

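Processed pseudogenes are described here as they appear in RNA bound to chromatin in mouse macrophages. A gene was a member if every transcript listed for it carried the type processed pseudogene, which held for 9940 of 55536 genes. There were 3 libraries, all of 1 condition and given by the labels as biological replicates 1, 2 and 3. The cells, macrophages grown from bone marrow of C57BL/6J mice, had received Lipid A, the membrane anchor of bacterial lipopolysaccharide, at 100 ng/ml for 12 h, then a washout of 12 h, then Lipid A at 100 ng/ml for 20 min. RNA of the chromatin fraction was depleted of ribosomal RNA, and the libraries started from 1 µg, 250 ng and 500 ng of RNA for replicates 1, 2 and 3, so amount and replicate cannot be told apart. All replicates carry the same donor entry, so the spread between them may in part be technical. Untreated cells and other fractions were not analysed here, so no value below is an effect of Lipid A.

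A processed pseudogene is a copy of a spliced messenger RNA that was reverse transcribed and inserted elsewhere in the genome, usually by the machinery of LINE-1 elements. It lacks the introns of the parent gene and, as a rule, its promoter, and the most frequent parents are housekeeping genes such as those of ribosomal proteins. Chromatin-bound RNA is rich in transcripts that are still being made, with their introns in place. A copy that lies in an intron, on the strand of its host, is therefore part of the host's unspliced RNA. A read from that stretch does not show whether it came from the host's RNA or from RNA started at the copy. The strand setting of the counting is not given in the sources used here, so whether the same holds for copies on the other strand is not known.

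The sequences that follow show how close the copies are to their parents, since this decides how reads can be assigned. They are from GENCODE M21 on genome GRCm38 (mm10). The first set is a stretch of the Hmgb1 coding sequence, positions 7 to 126, with its copies Hmgb1-ps5 at chr3:95530418-95530537 on the plus strand and Hmgb1-ps8 at chr10:22263242-22263361 on the minus strand. Capitals mark bases that differ from the parent.
Hmgb1: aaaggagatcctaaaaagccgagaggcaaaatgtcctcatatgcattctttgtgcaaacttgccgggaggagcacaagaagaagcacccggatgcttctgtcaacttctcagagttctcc
Hmgb1-ps5: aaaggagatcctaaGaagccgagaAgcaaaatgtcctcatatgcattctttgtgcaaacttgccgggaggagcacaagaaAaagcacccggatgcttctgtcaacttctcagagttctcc
Hmgb1-ps8: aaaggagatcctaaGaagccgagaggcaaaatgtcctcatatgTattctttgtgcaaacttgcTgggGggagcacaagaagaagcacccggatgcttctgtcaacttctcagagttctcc
Of these 120 bases, Hmgb1-ps5 differed at 3 and Hmgb1-ps8 at 4. The next set is the start of the Rpl21 coding sequence with Gm47727, the member with the highest mean level in the gene table, at chr13:20827836-20827955 on the plus strand.
Rpl21: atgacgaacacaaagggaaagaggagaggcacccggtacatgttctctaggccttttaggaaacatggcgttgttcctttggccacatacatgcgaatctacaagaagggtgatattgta
Gm47727: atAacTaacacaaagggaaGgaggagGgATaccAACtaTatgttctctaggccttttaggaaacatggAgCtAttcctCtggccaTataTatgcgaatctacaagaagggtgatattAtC
Gm47727 differed at 18 of the 120 bases. Polr2k-ps, at chr11:95761557-95761662 on the plus strand, is shown with the matching part of the longest annotated Polr2k coding sequence because it stood above its parent in both quantifications.
Polr2k: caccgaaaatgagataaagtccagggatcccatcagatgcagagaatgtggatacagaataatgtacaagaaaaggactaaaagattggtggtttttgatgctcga
Polr2k-ps: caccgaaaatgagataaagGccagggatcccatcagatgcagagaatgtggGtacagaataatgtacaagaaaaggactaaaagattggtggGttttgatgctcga
The last set holds examples of members called higher in the second of the 2 deposited quantifications, chosen to show a near-identical pair and repeated words. Gm12895, at chr4:122455210-122455435 on the plus strand, shares a run of 224 bases with Gm12896 at chr4:122122847-122123072, and capitals mark the 2 bases outside that run. In Gm48836, at chr10:5091006-5091286 on the minus strand, and Gm45647, at chr8:26780315-26780509 on the plus strand, capitals mark bases covered by a 31-base word found in at least 50 other genes.
Gm12895: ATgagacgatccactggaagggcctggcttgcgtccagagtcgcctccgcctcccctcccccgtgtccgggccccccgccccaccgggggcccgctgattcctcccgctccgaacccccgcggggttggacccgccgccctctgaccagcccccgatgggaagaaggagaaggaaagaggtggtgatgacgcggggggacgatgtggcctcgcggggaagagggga
Gm48836: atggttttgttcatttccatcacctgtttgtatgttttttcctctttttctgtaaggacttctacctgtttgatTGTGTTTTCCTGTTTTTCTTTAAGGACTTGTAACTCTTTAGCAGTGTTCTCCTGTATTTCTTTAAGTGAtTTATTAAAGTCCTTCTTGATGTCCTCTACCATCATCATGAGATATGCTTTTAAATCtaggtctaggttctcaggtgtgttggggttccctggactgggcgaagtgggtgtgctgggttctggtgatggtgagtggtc
Gm45647: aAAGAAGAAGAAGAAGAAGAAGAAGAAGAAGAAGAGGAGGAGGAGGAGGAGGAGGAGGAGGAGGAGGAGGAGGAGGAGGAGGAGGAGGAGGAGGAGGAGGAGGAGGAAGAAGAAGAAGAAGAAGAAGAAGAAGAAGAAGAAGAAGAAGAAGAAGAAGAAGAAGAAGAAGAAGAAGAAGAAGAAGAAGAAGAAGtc

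Most members are short copies of coding genes. Their annotated length had a median of 526 bases, and 8988 of the 9940 had a single exon. A coding sequence matched 9314 members, with a median identity of 88.8% over the aligned part and a median of 90.6% of the coding sequence covered. Gapdh, a glycolytic enzyme, was the closest coding gene of 237 members. The ribosomal protein gene Rpl7a followed with 180, Hmgb1, which encodes a DNA-bending chromatin protein, with 152 and the ribosomal protein gene Rps2 with 137. Symbols rarely name the parent: 8629 members have a Gm number, and 650 end in -ps.

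Expected counts summed to 13953780, 24222661 and 16571228 in replicates 1, 2 and 3, and those on genes to 13610746, 24105317 and 16517065. All 8 macrophage markers checked were detected, with mean levels from 33.9 to 334 TPM, and the summed level of each of the lists for T and NK cells, B cells, neutrophils and erythroid cells was at most 0.36 TPM in any library. TPM is a transcript level scaled for usable length to the same sum in every library. Each library has a gene table, which gives expected counts, and a second transcript table from another quantification of the same library, summed per gene here. A gene is called detected where it had at least 1 TPM in every library.

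Few processed pseudogenes were detected, and they took a small share of the counts. Of 9940 members, 797 were detected in the gene table, or 8.02%, against 24.1% of all genes. The share was 45.2% for protein-coding genes, 13.3% for long noncoding genes, 2.01% for unprocessed pseudogenes, which arise by gene duplication and keep their introns, and 17.2% for genes annotated as transcribed processed pseudogenes. Of all members, 7328 had 0 counts in every library, or 73.7%, against 55.1% of all genes. That share was 30.3% for protein-coding genes, 59.4% for long noncoding genes, 91.7% for unprocessed and 47.0% for transcribed processed pseudogenes. A count of 0 allows up to 3 counts, or 0.22, 0.124 and 0.182 CPM (counts scaled to the library's gene total) in replicates 1, 2 and 3. Members took 0.353, 0.289 and 0.269% of gene counts in the 3 libraries, a mean of 0.304% ± 0.0436 (SD, n = 3). The depth behind a detected member was often low: 285 of the 797 had fewer than 10 counts in at least 1 library, with a median length of 353 bases against 655 bases for the other 512. Near the threshold, Gm12186 and Gm15823 each had a lowest level of 0.99 TPM and were not detected.

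Detected members lay mostly in introns of expressed genes. Introns of other genes held 2515 members, or 25.3% of all, and 636 of the 797 detected ones. Of members in introns 25.3% were detected, whereas 120 of the 7097 members outside other genes, or 1.69%, were. Copies over an exon of another gene were between these, with 14 of 94 detected on the same strand and 27 of 234 on the opposite strand. Of the 170 members whose mean reached 10 TPM, 147 were intronic.

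The level of the host gene split the intronic members further. With a host under 1 TPM, 17 of 1396 members were detected, or 1.22%, which is close to the share outside genes. With a host of 1 to 10 TPM, 130 of 462 were detected, and with a host of at least 10 TPM 489 of 657, or 74.4%. With a host of at least 10 TPM, 72.9% of 240 members on the host's strand and 75.3% of 417 on the other were detected. With a host of 1 to 10 TPM the shares were 33.9% of 168 and 24.8% of 294, and with a host under 1 TPM 2.21% of 589 and 0.496% of 807. A member within genes of both strands was counted on the same strand, with the host taken from that strand. A same-strand member with a low host can therefore lie opposite a higher gene, so the strands are not compared on equal terms. Requiring at least 10 counts in every library as well gave 50.1% for hosts of at least 10 TPM, 14.1% for hosts of 1 to 10 TPM and 0.788% for hosts under 1 TPM. For hosts of at least 10 TPM the order of the strands then reversed, with 52.9% on the host's strand and 48.4% on the other.

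**Figure D1:**
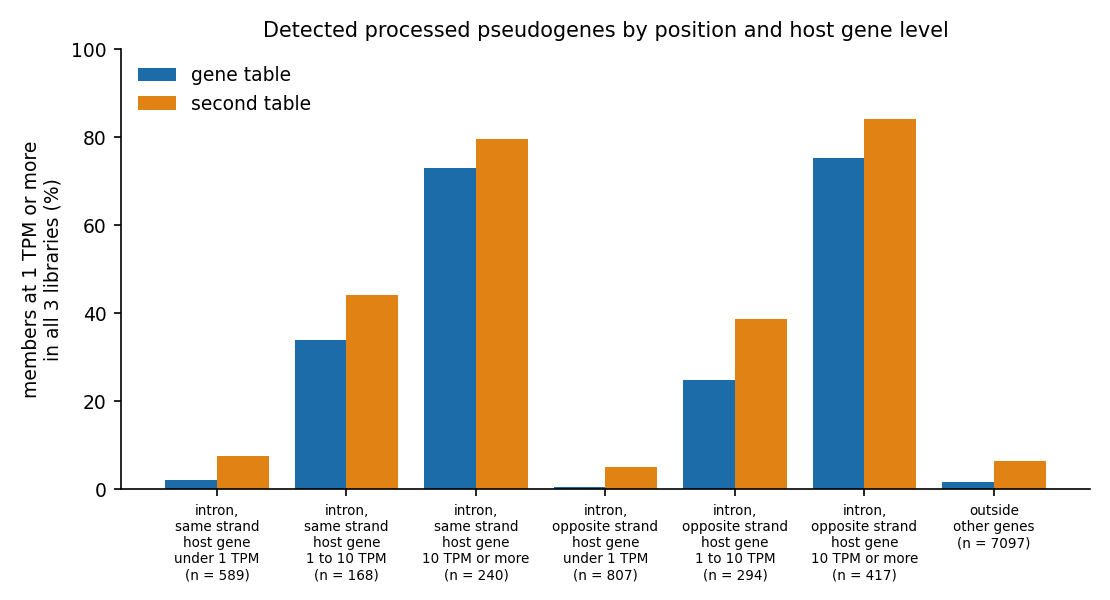
Percentage of members with at least 1 TPM in all 3 libraries (vertical axis) by position relative to other genes and by the mean level of the host gene, in the gene table and in the second table, with the number of members under each pair of bars. In both tables the bars are highest for hosts of at least 10 TPM, on either strand, at 72.9 and 75.3% in the gene table.

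The other pseudogene classes showed the same order by position, with fewer genes. Of unprocessed pseudogenes, 23 of 213 in introns and 26 of 2339 outside other genes were detected. With a host of at least 10 TPM, 8 of 19 were. Of transcribed processed pseudogenes, 22 of 69 in introns and 11 of 138 outside other genes were detected. These are counts within the same libraries and no test was run on them.

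Of the 15 highest members, 10 lay in an intron of another gene, 4 overlapped an exon and 1 lay outside other genes. Gm47727, a copy of Rpl21 with 83.1% identity, lies in an intron of Aoah, which encodes an enzyme that inactivates lipopolysaccharide. It was at 280.2, 109 and 159 TPM in replicates 1, 2 and 3 (183 ± 87.9, SD), and Aoah at 558, 351 and 436 TPM. Replicate 1 was highest for both and replicate 2 lowest. Such an order was common: over all detected genes replicate 1 was highest in 53.3% and replicate 2 lowest in 68.9%. The closest coding gene, Rpl21, was at 26.4, 16.5 and 16.0 TPM.
Gm20612, a partial copy of the ribosomal protein gene Rpl17 on the other strand of Il10ra, which encodes a chain of the interleukin-10 receptor, was at 95.2, 106 and 145 TPM. Il10ra was lower in each library, at 80.2, 69.1 and 83.0 TPM. Replicate 1 was lowest for the member and replicate 2 for the host. The annotated length of Gm20612 is 236 bases and it rested on 53, 102 and 76 counts. Gm17147, a copy of Nudt1, which encodes a hydrolase of oxidised nucleotides, lies opposite Hpgds, the gene of haematopoietic prostaglandin D synthase. It was at 114, 72.0 and 114 TPM, with Hpgds at 283, 225 and 283 TPM, so that replicates 1 and 3 were high and replicate 2 low for both. None of its 31-base words, the stretches of 31 bases it holds, occurred in another annotated gene.

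Other intronic members among the 15 lay in genes of varied function. Hmgb1-ps5 lies in an intron of Ctss, which encodes the lysosomal protease cathepsin S. Gm11805, a copy of the HMG-box gene Hmgb3, lies opposite the Src family kinase gene Lyn at 103, 48.4 and 64.7 TPM. Gm17849, distantly related to the cyclin gene Ccnd3, lies in Osbpl8, a gene of a lipid transfer protein, at 91.7, 51.9 and 66.9 TPM. CT025731.2, a copy of the ribosomal protein gene Rps6, lies in Xdh, which encodes xanthine dehydrogenase, at 70.2, 57.9 and 53.0 TPM. Gm15621, a copy of Ppia, the gene of the prolyl isomerase cyclophilin A, lies opposite Rilpl2 at 61.0, 41.1 and 75.8 TPM. In these 4 members replicate 2 was lowest in 3, and replicate 3 was lowest in CT025731.2.

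Gm5970, with 88.1% identity to the interferon-inducible GTPase gene Iigp1, was at 163, 113 and 90.1 TPM, below Iigp1 itself at 569, 293 and 235 TPM in each library. It lies in an intron of Gm4951, which was below the member in each library at 85.6, 49.9 and 58.0 TPM. Gm18852, close to the giant interferon-inducible GTPase gene Gvin1, was at 113, 68.9 and 76.1 TPM. Of its 31-base words 99.1% also occur in other genes. The deposited posterior standard deviation of its count was 235, 234 and 185 counts, small beside expected counts of 4482, 6019 and 3629. Gm12188, a copy of the translation repressor gene Eif4ebp1, overlaps an exon of the interferon-inducible gene Ifi47 on the other strand and was at 75.6, 58.2 and 45.0 TPM. Gm21370 and Gm31544, both closest to the phosphatase gene Ctdsp1, were at 95.4 ± 19.6 and 76.6 ± 15.8 TPM (SD, n = 3). Gm31544 shares 97.6% of its 31-base words with other genes, while the deposited posterior standard deviation of the count was at most 2.75 counts in any library for either member. Gm6545, with 73.2% identity to the protease gene Fam111a, was at 115, 74.5 and 49.3 TPM, above the host A330040F15Rik at 15.9, 6.47 and 5.62 TPM.

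**Figure D2:**
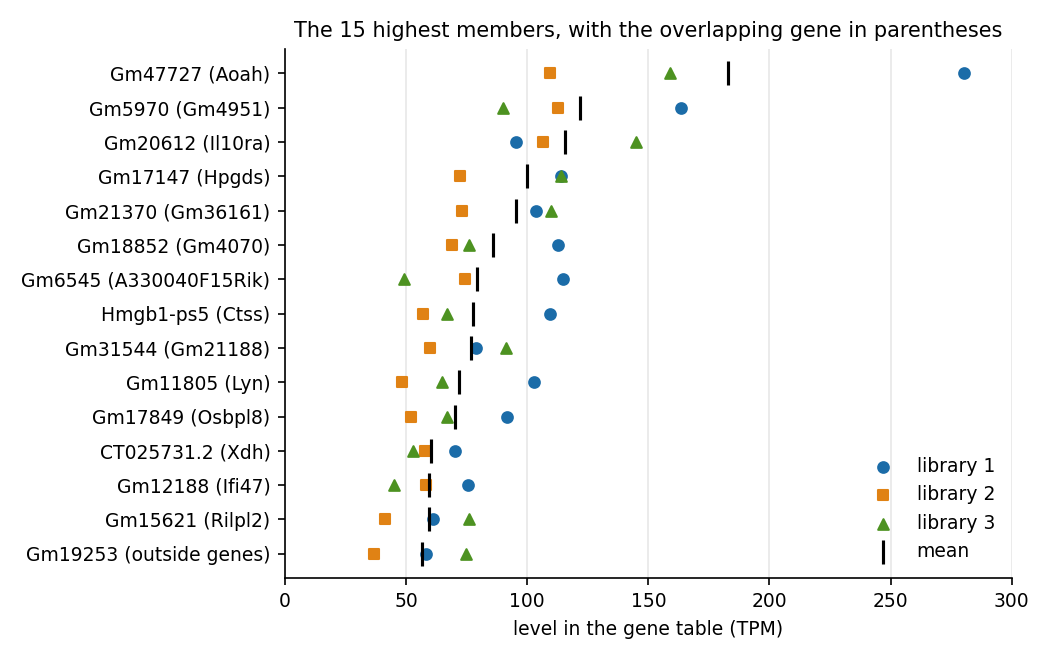
Level in the gene table (TPM, linear axis) of the 15 members with the highest mean, with 1 symbol per library, a bar for the mean and the overlapping gene in parentheses. Gm47727 in Aoah is highest at a mean of 183 TPM and has the widest spread, and 14 of the 15 overlap another gene.

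Across intronic members, the level was correlated with that of the host and not with that of the closest coding gene. Over 619 detected intronic members with a host of at least 1 TPM, Pearson's r of log2 TPM with the host was 0.46 and Spearman's rho 0.45. Over the 587 of these with a closest coding gene, r with that gene was 0.01 on log2(TPM + 1) and rho 0.00. The closest coding gene is the best sequence match and not always the parent. It was the parent named by the symbol in 508 of 563 members with such a symbol. For Rps12-ps9 it was a gene at 0.593 TPM, with Rps12 itself at a mean of 53.2 TPM. The value of r therefore describes the best match and not the parent in every case. The points share libraries and often hosts or parents, so these are descriptions without a test. The member was below its host in most cases, by a median of 2.16 on the log2 scale (median log2 ratio -2.16), and above it in 58 of 619. The median log2 ratio was -1.78 for 232 members on the host's strand and -2.43 for 387 on the other.
Differences between libraries gave higher correlations with the host as well. For 127 intronic members whose host and closest coding gene also had a mean of at least 50 counts, the log2 difference of replicate 1 to replicate 2 correlated with the host's at r = 0.49 and with the coding gene's at r = 0.16. For replicate 1 against 3 the values were 0.53 and 0.08, and for replicate 3 against 2 they were 0.42 and 0.17. The 3 differences are not independent, and all points share the libraries and their scaling.

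**Figure D3:**
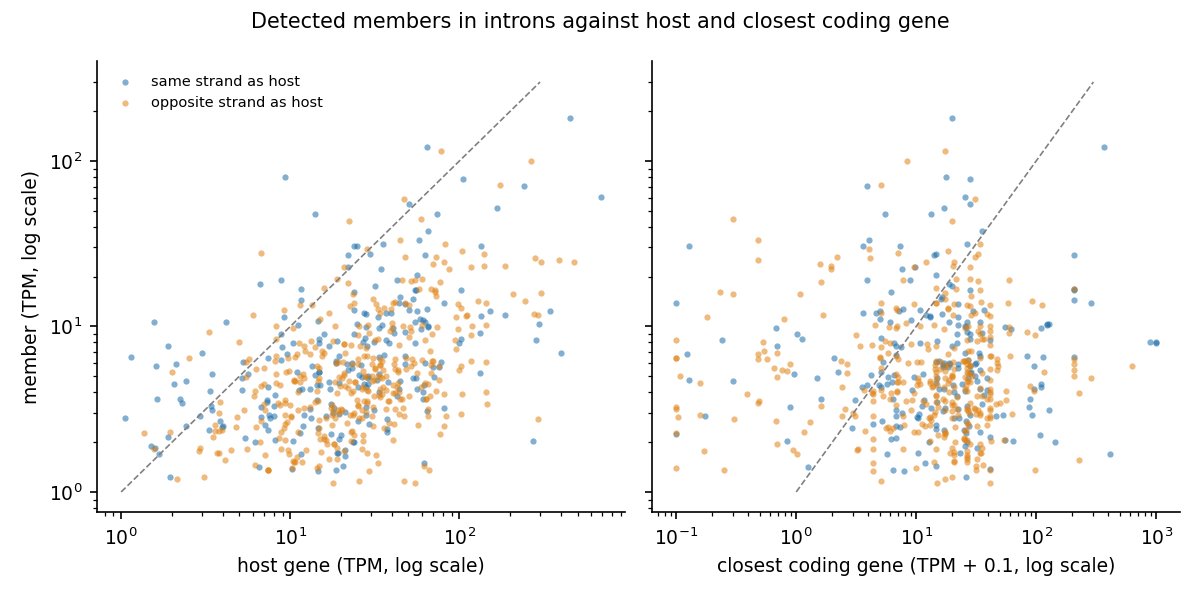
Level of detected intronic members (vertical axis, mean TPM, log scale) against the host gene (left) and the closest coding gene (right, TPM + 0.1), both on log axes, with members coloured by strand relative to the host and a dashed line of equality. Points rise with the host (r = 0.46, 619 members) but not with the closest coding gene (r = 0.01, 587 members). The closest coding gene is the best sequence match and not always the parent.

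Members detected outside other genes were few, and many share sequence with other genes. Of the 120, 14 reached a mean of 10 TPM, and 26 shared at least 90% of their 31-base words with another gene. The median share of such words was 41.6% in these 120, against 16.9% in the 636 detected in introns. Of 350 members outside other genes with at least 99% identity to a coding sequence 19 were detected, or 5.43%, against 27 of 2324 with 80 to 90% identity, or 1.16%. The share was 1.46% under 80% identity, 1.96% at 90 to 95% and 2.19% at 95 to 99%. The highest was Gm19253, a full-length copy of the mitochondrial ribosomal protein gene Mrps36 with 94.1% identity, at 58.1, 36.8 and 74.7 TPM, while Mrps36 was at 1.03, 0.76 and 0.73 TPM. In the gene table the lowest value of Gm19253 was far above the parent's highest, but Mrps36 rested on 5.59, 7.63 and 4.34 expected counts. In the second table Gm19253 was at 159, 77.2 and 182 TPM. Mrps36 was at 18.4, 7.81 and 9.44 TPM there, still below the copy in each library but much higher than in the gene table.
Gm6548, a copy of the elongation factor gene Eef1a1 with 96.7% identity, was at 33.8, 35.1 and 34.2 TPM, well under Eef1a1 at 252, 197 and 227 TPM. The next members are named after their values were seen. Gm11425, with 99.2% identity to the ribosomal protein gene Rpl12, was at 59.0, 29.7 and 39.6 TPM and shares 98.3% of its 31-base words. Gm12250 shares none and was at 39.5, 23.7 and 25.3 TPM.

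For 563 members the symbol is a parent gene's symbol plus -ps, with 249 parents in all, and these pairs allow a direct comparison with the parent. The coding sequence closest to the member was that of the named parent in 508. Of the members 59 were detected, or 10.5%, and 48 of these 59 were intronic, while 221 of the 249 parents were detected. Over 531 pairs with a parent of at least 1 TPM, the median log2 ratio of member to parent, log2((member TPM + 1)/(parent TPM + 1)), was -4.16, -3.89 and -4.08 in replicates 1, 2 and 3 (mean -4.05 ± 0.14, SD). Most of this ratio is set by members at or near 0. It was -2.09 in the 70 pairs where the mean of both genes reached 1 TPM.

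A copy exceeded its parent in every library in 11 of the 563 pairs, and 9 of these 11 were intronic. The Hmgb1 pairs are the best covered. Hmgb1-ps5 was at 109, 56.9 and 67.0 TPM and Hmgb1-ps8, in the noncoding gene Gm26740, at 65.6, 42.6 and 55.8 TPM, against 26.4, 23.6 and 34.1 TPM for Hmgb1. The log2 ratio to Hmgb1 was 1.40 ± 0.55 and 0.93 ± 0.31 (SD, n = 3). In the second table the order differed: Hmgb1 was at 65.9, 44.6 and 70.2 TPM, Hmgb1-ps5 at 75.8, 37.8 and 42.4 TPM and Hmgb1-ps8 at 58.9, 45.4 and 53.2 TPM. The groups overlap there, so in these data which of the 3 was highest depends on the quantification. Hmgb1-ps5 shares 82.4% of its 31-base words with other genes, and Hmgb1-ps8 51.3%.
Usable length weighs on the other pairs. Polr2k-ps, a copy of a small subunit of the RNA polymerases in an intron of Zfp652, was at 42.4, 28.9 and 72.4 TPM against 6.47, 3.56 and 6.25 TPM for Polr2k. Its length is 175 bases, its deposited effective length in replicate 1 was 14.0 bases, and it rested on 7, 8 and 11 counts. Polr2k had 22, 25 and 24 counts. Hspe1-ps5, a copy of the mitochondrial co-chaperonin gene Hspe1 opposite Sp3, was at 69.6, 22.7 and 40.5 TPM from 76, 45 and 44 counts, against 3.90, 3.64 and 5.29 TPM for Hspe1. Hspe1-ps2, opposite Cox16, was at 22.6, 10.1 and 14.5 TPM. Compared by counts instead, 3 of 563 members exceeded their parent in every library, and these were Rpl36-ps2, Bambi-ps1 and Dnmt3l-ps1.

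A copy exceeded its parent in every library of the second table in 11 pairs as well, and 6 were the same pairs. These 6 were Rpl36-ps2, Hspe1-ps2, Hspe1-ps5, Polr2k-ps, Bambi-ps1 and Dnmt3l-ps1. Rpl36-ps2, a copy of a ribosomal protein gene opposite Abr, was at 23.6, 23.5 and 21.1 TPM in the gene table, above Rpl36 at 10.6, 7.61 and 10.1 TPM. In the second table it was at 42.6, 32.8 and 33.2 TPM, just above Rpl36 at 36.6, 25.4 and 33.1 TPM. Bambi-ps1, which lies outside other genes and copies the gene of a decoy receptor of the TGF-beta family, was at 5.26, 1.77 and 2.23 TPM with Bambi at 0.10, 0.06 and 0.15 TPM. Dnmt3l-ps1, a copy of the DNA methyltransferase cofactor gene Dnmt3l, was at 3.29, 2.05 and 3.28 TPM with Dnmt3l at 0, 0 and 0.22 TPM.
Another 3 of the 10 highest pairs had a member near or below its parent. Rpl26-ps4, opposite Med15, was at 14.3, 9.94 and 17.2 TPM, and its parent Rpl26 at 14.4, 13.0 and 16.5 TPM, which do not differ beyond their spread. Rpl30-ps3 was at 20.6, 5.95 and 9.06 TPM and Rpl30 at 45.3, 34.2 and 35.9 TPM. Akirin1-ps, from a nuclear cofactor gene, was at 13.1, 7.47 and 14.4 TPM and Akirin1 at 19.7, 16.9 and 24.2 TPM. The parent was higher in every library in the last 2 pairs.

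**Figure D4:**
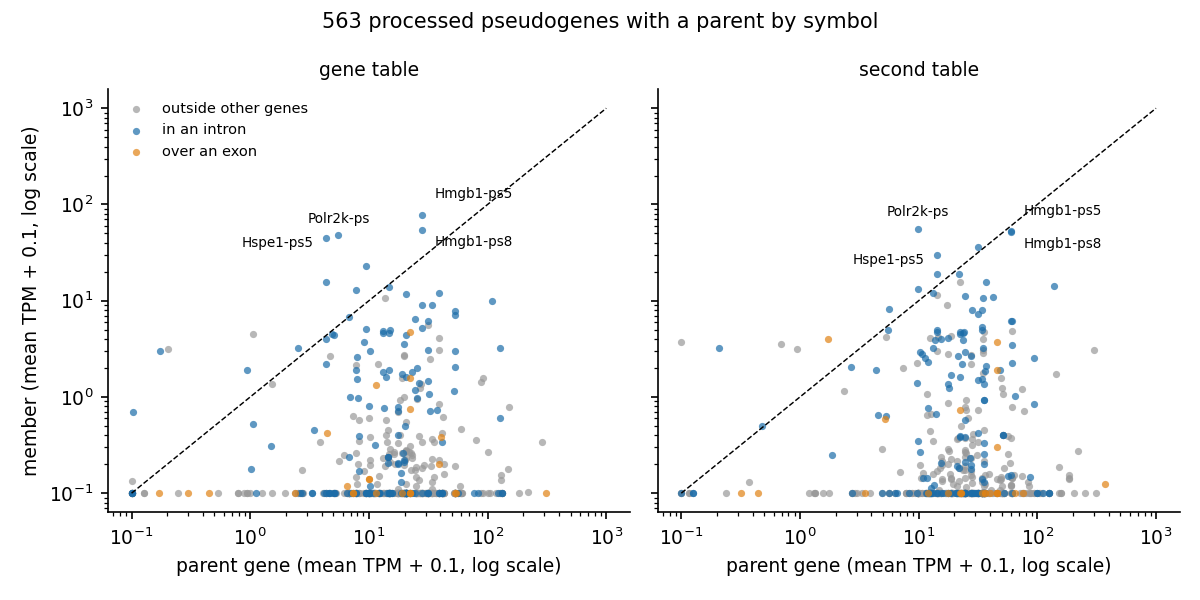
Mean level of 563 members (vertical axis, TPM + 0.1, log scale) against the parent named by the symbol (horizontal axis, TPM + 0.1, log scale) in the gene table (left) and the second table (right), coloured by position, with a dashed line of equality. Most members lie at the bottom, near 0, and Hmgb1-ps5 and Hmgb1-ps8 are above the line on the left and just below it on the right.

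The members were also grouped by the function of the closest coding gene. Ribosomal protein copies were the largest group, with 269 of 2372 detected, or 11.3%. The shares were 12.3% of 220 for RNA-binding proteins, 11.6% of 216 for the respiratory chain, 9.87% of 223 for proteasome and ubiquitin, 8.90% of 337 for chromatin proteins and 8.59% of 198 for translation factors. They were 6.73% of 223 for chaperones, 6.29% of 334 for glycolysis and 5.34% of 131 for the cytoskeleton. The small groups of ferritin and of interferon or inflammation had 1 of 9 and 2 of 17 detected. Iigp1 and Gvin1 were not on the interferon list, so Gm5970 and Gm18852 are not among its members. Groups went by the symbol of the closest coding gene. Hspe1-ps5 and Hspe1-ps2 were closest to AC117239.2 and so are not among the chaperones, and the 129 members closest to Gm10358 are in no group. Within introns the shares ran from 23.1% for the cytoskeleton to 36.7% for the respiratory chain among groups of over 20 intronic members. No test was run between groups.
Detection was also compared by the level of the closest coding gene. Of intronic members 18.6% of 301 were detected where that gene was under 1 TPM and 27.1% of 1475 where it had at least 10 TPM. Outside other genes the values were 1.72% of 1102 and 1.76% of 3923.

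Each group, as defined by the symbol of the closest coding gene, is illustrated by its highest members. From glycolysis, the Gapdh copies Gm26931, opposite Fam193a, and Gm17068, in Gnaq, were at 13.5 ± 1.92 and 9.32 ± 2.05 TPM (SD, n = 3), below Gapdh at 29.0, 29.4 and 20.6 TPM. From the respiratory chain, 2610024D14Rik, a copy of the ATP synthase subunit gene Atp5l in an intron of the ubiquitin ligase gene Peli1, was at 64.0, 41.1 and 38.0 TPM. Its host Peli1 was at 101, 53.0 and 66.2 TPM. Gm42672, a copy of the complex I subunit gene Ndufb4 in an intron of Arnt, was at 33.2 ± 7.46 TPM.
From RNA-binding proteins, the Hnrnpa3 copies Gm12229, in Cdc42se2, and Gm17082, in Tm9sf2, were at 26.8 ± 2.69 and 16.8 ± 2.63 TPM. Gm13650, from the ubiquitin-conjugating gene family member Ube2v2 and in Sestd1, was at 19.0 ± 6.83 TPM. Gm13331, a copy of the ubiquitin-conjugating enzyme gene Ube2d3, overlaps an exon of Spopl on the other strand, shares all of its 31-base words with other genes and was at 13.2 ± 2.94 TPM. E030024N20Rik, a Ppia copy opposite Gnaq, was at 31.6, 15.9 and 31.4 TPM, and Gnaq at 68.1, 27.6 and 46.5 TPM. Replicate 2 was lowest for both, as for 68.9% of all detected genes.
Among cytoskeletal copies, Gm15899 was at 77.6, 30.0 and 52.4 TPM although its host Cbfa2t3 had at most 0.14 TPM. All of its 31-base words also occur in other genes, and its closest coding gene, Actr3 of the Arp2/3 complex, was at 394, 260.4 and 260.4 TPM. Gm17228, a copy of the actin gene Actg1, was at 10.2 ± 2.97 TPM. Fth-ps2, a ferritin heavy chain copy in Braf, was at 8.04 ± 2.14 TPM (SD, n = 3), and Fth-ps3 had counts in replicate 1 only in the gene table. AC121299.1, a copy of the interferon-induced antiviral gene Ifitm3 opposite Ankrd12, was at 32.4, 22.3 and 31.2 TPM, above Ifitm3 at 25.8, 9.48 and 19.9 TPM in each library. AC151275.1, a copy of the ubiquitin-like interferon-stimulated gene Isg15, was at 2.60, 1.77 and 1.78 TPM.

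The 2 quantifications gave different totals for processed pseudogenes. The second table put 1.77, 2.07 and 1.47% of gene counts on members in replicates 1, 2 and 3 (1.77% ± 0.298, SD), and 1322 of 9940 were detected there, or 13.3%, against 37.9% of all genes. Of the 797 detected in the gene table, 752 were detected in both. A few members carried much of the total: the 10 highest by counts held 51.5% of member counts in the second table and 27.5% in the gene table. Outside other genes 458 members were detected in the second table against 120 in the gene table, and in introns 816 against 636.

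Each library's difference between the tables was tested with limma on log2(CPM + 1). A call needed an adjusted p under 0.05 and at least 1 log2 unit. Of 1516 members with a mean of at least 10 counts in either table, 364 were called higher in the second table, or 24.0%, against 29.6% of all 25362 genes tested. Another 13 were called lower, or 0.858%, against 0.252%. A gene with 0 counts in the gene table passed this filter only through the second table, so its direction was fixed in advance. This holds for 198 of the 364. The median difference was 0.40 in members and 0.41 in all genes, which are close, but with 0.1 CPM added in place of 1 they were 0.93 and 0.61. With edgeR's quasi-likelihood test and the replicate number as a block the counts were 757 and 30, and the share called higher then lay above that of all genes, 49.9% against 44.1%.
Repeated words were more frequent among members called higher, though many of these had none. Of the 364, 198 had a 31-base word found in at least 50 other genes, or 54.4%, against 13.4% of the 1139 not called. Also 198 of the 364, not necessarily the same members, had 0 counts in every library of the gene table and could only differ upward. The share with repeated words was not computed for the remaining members alone. A run of at least 31 bases of a simple repeat was present in 82 of the 364. The 13 called lower had no such repeated word, a median of 99.7% identity to the closest coding sequence and a median of 91.8% of 31-base words shared. Whether the shared words set the calls was not tested.

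The largest differences were in members with 0 counts in the gene table. Gm12895 and Gm12896, the near-identical pair printed above, each stood at 3099, 44918 and 6632 TPM in the second table, with replicate 2 far above the others. Together they took 0.036, 0.623 and 0.0781% of gene counts, a mean of 0.246% with replicate 2 and 0.057% without it. The fitted difference was 9.24 ± 0.74 (SE, limma adjusted p = 9.6e-05). As the gene table has 0 counts, the direction of this difference was fixed by the filter and its size depends on the added 1 CPM. Apart from each other, no annotated gene shared a 31-base word with them, and no coding sequence matched them. Sequence outside the annotated transcripts, such as ribosomal DNA, was not searched, so whether these reads come from the pair was not tested. Gm19220 was at 776, 1177 and 1688 TPM in the second table and 0 in the gene table, with 31.2% of the Naa10 coding sequence matched.
Other members high in the second table had some counts in the gene table. Gm48836, whose repeated words are printed in capitals above, was at 1656, 657 and 1007 TPM against 2.12, 2.38 and 9.75 TPM. Gm48269 was at 904, 480.0 and 681 TPM against 0.57, 0.84 and 1.22 TPM. Gm48493 is named after its values were seen: it is 3841 bases long, holds a word present in 123 other genes, and was at 860, 490.0 and 637 TPM against 2.25, 1.68 and 2.11 TPM. Gm45647, also named after its values were seen and made up almost wholly of repeated words in the sequence above, was at 329.9, 225 and 314 TPM against 0 in the gene table.
Of the 13 members called lower, the 3 with the largest differences were close copies of a coding gene. Gm7353, with 99.9% identity to the zinc finger gene Zc3h3, was at 2.20, 2.86 and 2.89 TPM in the gene table and 0, 0.142 and 0.102 TPM in the second. Its difference was -2.66 ± 0.08 (SE, limma adjusted p = 3.3e-06). Gm7964, from the RNA-binding gene Hnrnpk, was at 3.65, 2.84 and 4.92 TPM against 0.0629, 0 and 0 TPM. Gm12183, from the RNA helicase gene Ddx5, was at 2.48, 3.31 and 5.54 TPM against 0.171, 0.253 and 0.496 TPM. No library's value in the second table reached the lowest in the gene table for any of the 3.

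**Figure D5:**
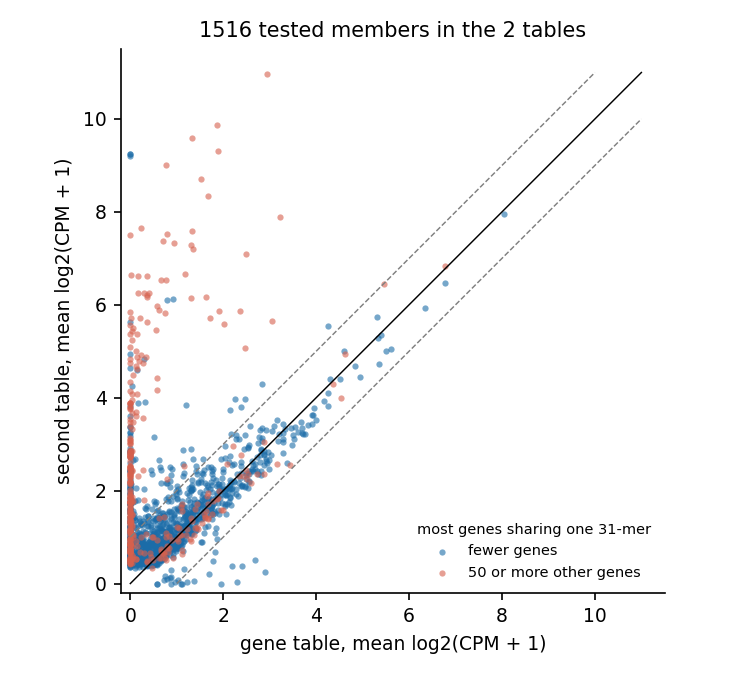
Mean log2(CPM + 1) of 1516 members in the gene table (horizontal axis) and the second table (vertical axis), with a solid line of equality, dashed lines at 1 log2 unit and members with a 31-base word in at least 50 other genes in red. Of the 364 members called higher, 198 are red, and the 13 called lower sit under the line near the bottom. Members with 0 counts in the gene table lie at the left edge and could only differ upward.

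Between libraries, members varied more than all genes of the same filter. The median SD of log2 CPM was 0.283 over 202 members with a mean of at least 50 counts, against 0.199 over all 11632 such genes. Members had fewer counts. Among genes with 50 to 200 counts the medians were 0.282 for 163 members and 0.243 for all 4044 genes, an alternative chosen after seeing the data. Members still had fewer counts within this range, with a median of 80.7 against 104.7, so depth was not fully matched. Without replicate 1 the median SD of members was 0.201 and that of all genes 0.146.
Replicate 1 was the highest library for 432 of the 797 detected members, and replicate 2 the lowest for 432. These are 54.2% each, against 53.3 and 68.9% of all detected genes, and 61.1 and 78.4% of the hosts of detected intronic members.

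By the SD of log2 CPM, the widest spread was in Gm5182, a copy of the acetyl-CoA carboxylase gene Acaca with 99.2% identity. It was at 0.17, 0.78 and 2.46 TPM, with Acaca at 30.4, 33.1 and 34.4 TPM. Replicate 1 was lowest and replicate 3 highest for both, over a far wider range for the copy. In the second table Gm5182 was at most 0.104 TPM. Gm12960 and Gm12961, both closest to Hnrnpa3 and opposite Spata6, came next. Gm12960 was at 8.53, 1.33 and 7.88 TPM and Gm12961 at 6.55, 1.19 and 7.25 TPM, both low in replicate 2. Spata6 was at 34.5, 20.4 and 35.8 TPM with the same library lowest. The narrowest was that of Gm26931, with an SD of log2 CPM of 0.0389, followed by Gm17082 with 0.0668. This ranking covers named members with a mean of at least 50 counts, without those named after their values were seen. In TPM the order can differ: the SD was 1.92 for Gm26931 and 0.689 for Gm6548.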

How the data were processed

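Total RNA sequencing of the chromatin fraction gave 3 libraries of 1 group, grouped by the labels' descriptions. The authors' gene tables hold expected counts and TPM, per the file headers, with column names that match RSEM. The deposited second tables hold estimated counts and TPM per transcript, with column names that match kallisto, and were summed per gene. Genome mm10 and annotation M21 are named in the readme deposited with each library. The programs, aligner and strand setting were not given in the sources used here. Spike-in and other entries that name no gene took 2.46, 0.484 and 0.327% of expected counts and stayed out of CPM. Expected counts were rounded for edgeR and DESeq2.

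Positions came from the GENCODE M21 annotation with bedtools 2.31.1, and the host is the overlapping gene of the stated strand with the highest mean TPM. Overlap with an exon was taken before position in an intron, and the same strand before the opposite strand. The closest coding gene is the best blastn (2.17.0) match to the longest coding sequence of each protein-coding gene. Shared 31-base words were counted over all annotated transcripts without regard to strand, so a word and its reverse complement were taken as the same. Tables were compared with limma 3.58.1 and edgeR 4.0.16 in R 4.3.3, and spread used TMM factors and a prior count of 2, with DESeq2 1.42.0 as an alternative. On simulated differences between the tables in 15663 genes, changes of -3, -2, 2 and 3 log2 units were called in 89.8, 70.8, 98 and 100%. These genes all had a mean of at least 10 counts in the gene table, and the 2 simulated tables were drawn independently. The rates therefore do not cover members with 0 counts in the gene table. Counts of 0 allow up to 3 counts, which covers counting error only.

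Members, gene groups and alternatives were chosen with earlier results of these data known. Named members are the 15 highest by mean TPM, the 5 highest in the second table beyond these, the 10 highest with a parent by symbol, the 3 largest called differences each way, the 3 largest SDs, and the 2 highest of each parent group. A member that this rule names is not reported here.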

Additional observations from a re-analysis of the deposited data

How the results depend on the processing

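Of 65 values recomputed under alternatives, 43 kept their direction and side of the threshold or stayed near the reported value. At 5 TPM 249 members were detected, 210 of them in introns and 27 outside other genes, and at 0.5 TPM 194 were detected outside other genes. The second table gave 1322 detected members, 458 outside other genes, 1.77% of counts and a median log2 ratio to the parent of -4.48. That ratio was -7.07 with a pseudocount of 0.1 TPM and -2.09 with both genes at 1 TPM. By CPM 3 members exceeded their parent. With a prior of 0.1 CPM 720 members were called higher and 29 lower, and with edgeR and the replicate block 757 and 30; the share of members called higher passed that of all genes in both, and with log2(TPM + 1). The median difference of all genes moved from 0.41 to 0.61 with a prior of 0.1 CPM, 0.61 on TPM, 0.26 with TMM factors and 0.15 without a filter. The median SD was 0.35 at a mean of 10 counts. Chosen after seeing the data were the range of 50 to 200 counts, leaving out libraries in the counts by position, the filter of 10 counts in every library (512 detected, 405 in introns, 75 outside), the second table without Gm12895 and Gm12896 (1.52% of counts) and pairs outside other genes (-4.31). Leaving out each library in turn gave 852 to 877 detected members, shares of 0.279 to 0.321%, 361 to 368 members called higher and 12 to 15 lower, ratios of -4.12 to -3.99, 11 to 13 members above their parent, a median SD of 0.201 to 0.291, and 660 to 683 detected in introns and 145 to 149 outside other genes.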
